A study of Mus musculus with 16 samples.

Results

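To ask how loss of desmin and swimming stress bear on the chromatin of the genes that specify cardiac muscle, the H3K27Ac peaks of 8 cardiac transcription factor genes were followed: Gata4, Gata6, Nkx2-5, Tbx5, Tbx20, Tbx3, Hand2 and Irx4. H3K27Ac, acetylation of histone H3 at lysine 27, marks active promoters and enhancers. A peak was counted for a gene when the deposited annotation named that gene, which is the one with the nearest transcription start. This rule gave 94 peaks of 53959 over 4 lists, and 7 of the 8 genes had at least 1.

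The 4 lists come from chromatin immunoprecipitation sequencing (ChIP-seq) of adult cardiomyocytes (ACM) that were freed from the hearts of 3-month-old mice by perfusion with enzymes. Mice were Des+/+, with intact desmin, the muscle intermediate filament protein, or Des-/-, without it, and were either unstressed (basal) or had undergone swimming exercise (swim). According to the methods, both genotypes carried a green fluorescent protein transgene driven by the cardiomyocyte promoter αMHC on a 129SV background, and the chromatin of each group came from 5 mice. There was 1 H3K27Ac library in each group, so no difference below has a replicate check and no test was made. The labels give each library its own catalogue number of the antibody, while the methods name a single one.

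These factors form the core network of heart muscle identity. GATA proteins are zinc finger factors, Nkx2-5 and Irx4 are homeodomain factors, Tbx5, Tbx20 and Tbx3 belong to the T-box family, and Hand2 is a basic helix-loop-helix factor. They bind one another and often occupy the same enhancers, and they keep regulating contractile and conduction genes after the heart has formed. GATA factors bind sites with the core GATA, Nkx2-5 binds sites ending in AAGTG, T-box factors bind GGTGTGA-like half-sites, and Hand2 binds E-boxes with a partner.

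The 4 stretches below are shown because the peak patterns turn on them: an element upstream of Nkx2-5 and another upstream of Gata4, both with a peak in 3 lists and none in Des-/- swim, the Irx4 promoter, with a peak only in the basal lists, and the Hand2 promoter, overlapped at least in part by a peak in every list. Each is 300 bases of the reference genome GRCm38. The promoters run from 250 bases before the start to 50 after it, as given by RefSeq (GRCm38.p6), which held promoter windows for 4 of the 8 genes. The elements are centred on the highest point of the Des+/+ basal peak. Capitals mark matches, on either strand, to 4 motifs. The first is a site for GATA factors, spelled AGATAA, with TGATAA counted as well. The second is the site of the NKX family, spelled TNAAGTG. The third is a half-site of the T-box family, GGTGTGA. The last is the E-box with the letters CATCTG.
Nkx2-5 upstream element, chr17:26849749-26850048, plus strand: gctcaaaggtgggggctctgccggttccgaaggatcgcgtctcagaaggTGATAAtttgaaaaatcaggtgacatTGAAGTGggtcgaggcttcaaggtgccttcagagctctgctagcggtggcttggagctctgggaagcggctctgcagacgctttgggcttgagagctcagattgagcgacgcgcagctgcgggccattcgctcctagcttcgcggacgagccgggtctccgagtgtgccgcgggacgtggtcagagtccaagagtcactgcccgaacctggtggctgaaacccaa
Gata4 upstream element, chr14:63317852-63318151, plus strand: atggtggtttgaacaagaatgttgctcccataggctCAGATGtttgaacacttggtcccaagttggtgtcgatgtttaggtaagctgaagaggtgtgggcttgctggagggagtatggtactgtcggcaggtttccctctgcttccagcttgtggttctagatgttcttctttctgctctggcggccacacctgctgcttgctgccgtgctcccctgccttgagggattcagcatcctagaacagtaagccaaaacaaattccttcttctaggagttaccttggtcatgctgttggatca
Irx4 promoter, chr13:73260247-73260546, plus strand: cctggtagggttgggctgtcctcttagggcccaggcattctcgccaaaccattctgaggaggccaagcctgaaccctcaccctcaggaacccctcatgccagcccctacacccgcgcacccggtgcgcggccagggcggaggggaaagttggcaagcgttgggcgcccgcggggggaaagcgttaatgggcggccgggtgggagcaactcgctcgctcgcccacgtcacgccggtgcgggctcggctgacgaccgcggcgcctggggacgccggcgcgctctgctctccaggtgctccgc
Hand2 promoter, chr8:57320733-57321032, plus strand: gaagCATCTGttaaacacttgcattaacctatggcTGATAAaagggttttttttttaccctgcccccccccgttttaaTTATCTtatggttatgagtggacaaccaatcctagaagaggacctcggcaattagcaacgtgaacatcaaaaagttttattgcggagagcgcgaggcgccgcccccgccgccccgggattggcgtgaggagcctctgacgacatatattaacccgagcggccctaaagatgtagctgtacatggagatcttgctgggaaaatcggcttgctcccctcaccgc

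The Nkx2-5 element held 1 GATA match and 1 NKX match, and the Hand2 promoter held 2 GATA matches and 1 E-box match. The Gata4 element held 1 E-box match, and the Irx4 promoter held none of the 4 motifs. No match overlapped a match to another of these motifs. Of all 32851 RefSeq promoter windows, 18.6% held a GATA match, 11.5% an NKX match, 3.98% a T-box match and 17.2% an E-box match. In 300-base windows on the highest points of the 15757 Des+/+ basal peaks, the shares were 12.4%, 9.69%, 3.66% and 14.1%. Such matches describe letters in these windows and do not show that a factor binds there.

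The 8 genes had 30 peaks at rest in Des+/+ and 27 in Des-/-, and 22 and 15 after swimming. As a share of each list these were 0.19%, 0.162%, 0.197% and 0.144% (values for the 4 libraries are given in this order throughout). The genes with at least 1 peak numbered 7, 7, 6 and 5. Swim lists were shorter as a whole, with 11157 and 10407 peaks against 15757 and 16638 in the basal lists. When only the 10407 highest peaks of each list were kept, the member peaks numbered 16 and 15 at rest in Des+/+ and Des-/- and 21 and 15 after swimming, so the order by condition did not hold at equal list length. In bulk chromatin, fewer cells of a type and less acetylation in each cell cannot be told apart.

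**Figure D1:**
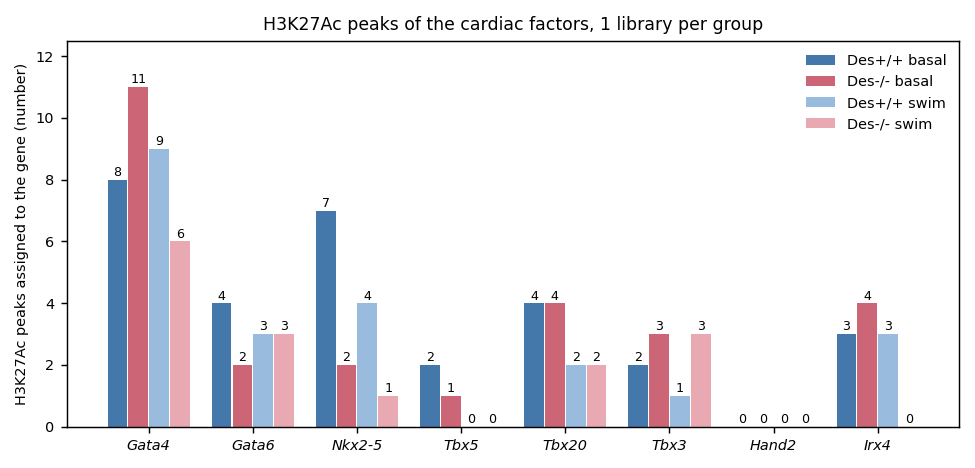
Bars give the number of H3K27Ac peaks assigned to each gene (vertical axis) in each of the 4 libraries. Gata4 has the most peaks in every library (8, 11, 9 and 6), Nkx2-5 goes from 7 in Des+/+ basal to 1 in Des-/- swim, and Hand2 has none.

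Member peaks covered 41.7 kb at rest in Des+/+, 37.6 kb at rest in Des-/-, and 23.1 and 15.5 kb after swimming. Their heights, the deposited number of overlapping reads at a peak, lay between 15 and 42, and 15 was the lowest height in any list. The median member height was 19.5 and 22 reads at rest and 18.5 and 19 after swimming, against 23, 23, 20 and 23 over all peaks. The member medians were thus below those of their lists and close to the lowest height kept, where counting error is large (exact 95% Poisson limits of 8.40 and 24.7 for 15 reads). Input heights under member peaks averaged 2.33, 2.59, 2.59 and 4.73 reads, and 2.96, 2.80, 3.06 and 5.48 over all peaks. Both member and general input were thus highest in Des-/- swim, and the part of this in the peak numbers was not tested.

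Of the 94 peaks, 62 lay within 3 kb of an annotated start and are called promoter peaks here. Their share was 60.0% at rest in Des+/+ (95% Wilson interval 42.3 to 75.4%) and 63.0% in Des-/- (44.2 to 78.5%), and after swimming 68.2% (47.3 to 83.6%) and 80.0% (54.8 to 93.0%). Over all peaks the promoter share was 71.5%, 71.2%, 74.4% and 77.3%, which each of these intervals includes. Peaks annotated as distal intergenic numbered 5, 3, 3 and 0. All intervals here cover counting error only.

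Gata4, the zinc finger factor needed for cardiomyocyte growth and hypertrophy, lies on chromosome 14 (63198922 to 63271692, minus strand). At rest it had 8 peaks in Des+/+ and 11 in Des-/-, and after swimming 9 and 6. They covered 16243, 15443, 11533 and 7415 bp, which placed Gata4 20th, 27th, 33rd and 91st among the genes with a peak in each list. Chained over the lists, its peaks formed 7 regions, of which 3 had a peak in every list.

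The outermost Gata4 promoter carried a block from 1.2 kb before to 4.3 kb after the start. Its highest peak was 35 reads at rest in Des+/+ (input 1) and 29 in Des-/- (input 2), and after swimming 31 in Des+/+ (input 2) and 16 in Des-/- (input 3). Des-/- swim was the low library, and its only peak there (chr14:63268332-63269571, 1240 bp) lay inside the first intron and did not reach the start. In Des+/+ basal a single peak of 5444 bp spanned the block. Between the swim libraries, overlapping peaks were compared only at chr14:63267585-63270155, inside the gene. The ratio Des-/- over Des+/+ there was 0.516 (exact 95% interval 0.264 to 0.973), or 0.466 (0.238 to 0.879) after centring on all shared regions. The Des+/+ swim peak nearer the start (chr14:63270203-63271553, 28 reads) had no partner and was not part of the ratio. It also ended short of the outermost start. Only 0.133% of the 7492 regions shared by those lists had a centred ratio this low or lower.

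Another 2 Gata4 regions had a peak in every list. The one from 22.4 to 28.1 kb after the outermost start lay around an internal annotated start. It was 37 reads high at rest in Des+/+, 42 in Des-/- and 22 in both swim libraries. The other, from 29.5 to 32.0 kb, had its peaks 3.1 to 4.0 kb from the nearest annotated start. It was annotated as 5′ UTR and its main peak covered 613 coding bases. It reached 36 and 34 reads at rest in Des+/+ and Des-/-, and 18 and 26 after swimming. In Des-/- swim its input height of 8 was the highest under any Gata4 peak. Lamin A/C peaks over Gata4 coding exons were not used here, and their relation to this acetylation peak was not tested.

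Far upstream, 46.0 to 47.8 kb before the outermost Gata4 start, a region over exons of the long noncoding RNA gene Gm49390 held the Gata4 element printed above. It was 23 and 25 reads high at rest in Des+/+ and Des-/-, and 21 in Des+/+ swim, with inputs of 1 to 3, and had no peak in Des-/- swim. Repeats were not looked for in the printed windows, and whether the reads there map to a single place was not tested. Intronic peaks from 5.1 to 7.3 kb were in the basal lists only, at 15 to 20 reads. Des-/- basal alone had a peak at 15.6 to 16.1 kb, of 24 reads.

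**Figure D2:**
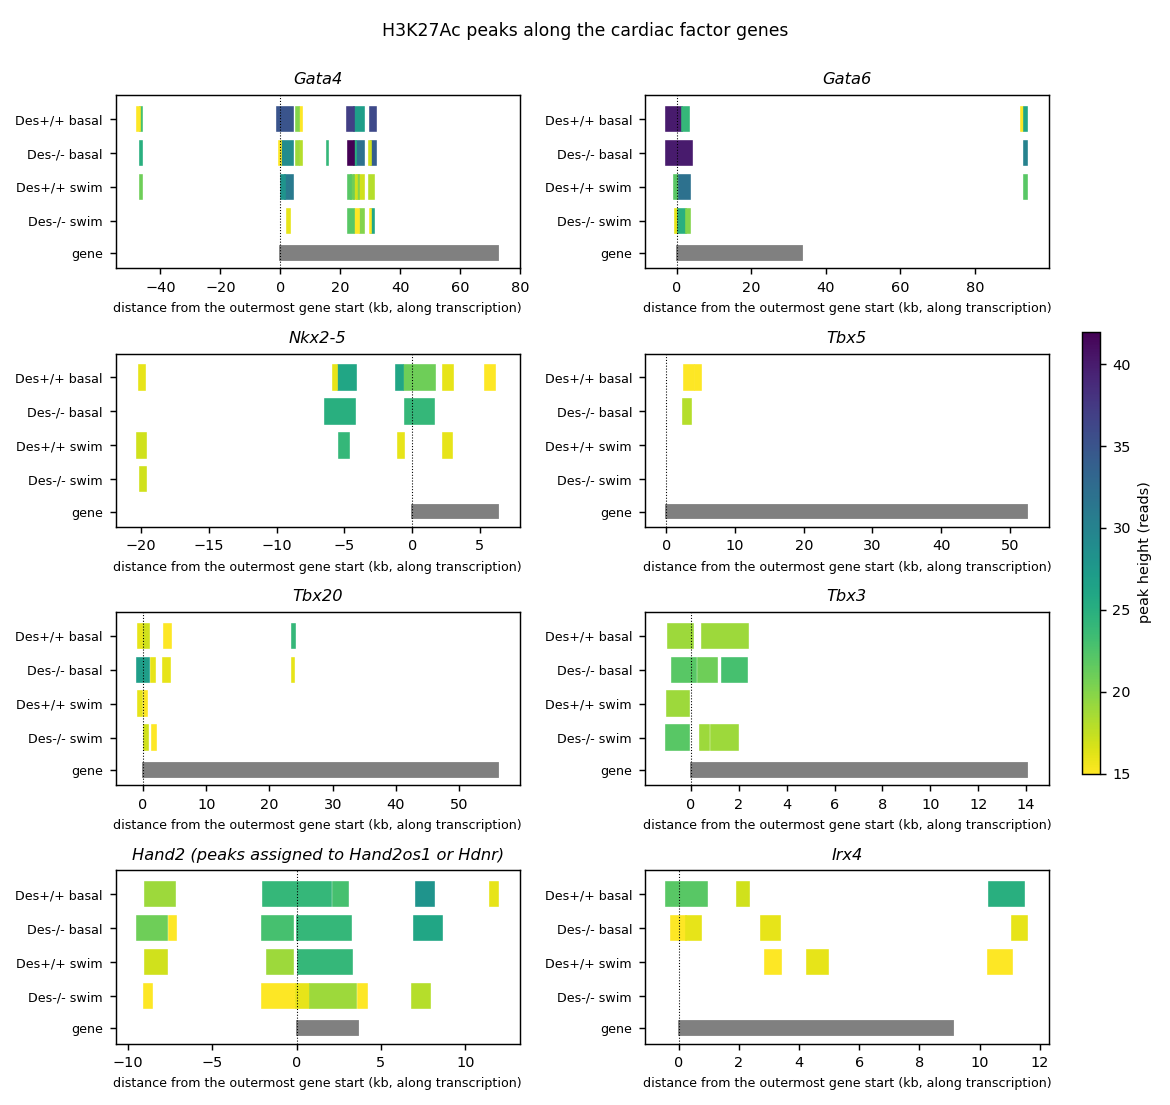
Peaks of each gene in the 4 libraries are drawn by distance from the outermost gene start along transcription (horizontal axis, kb), coloured by height in reads, with the gene as a grey bar. The Gata4, Gata6 and Nkx2-5 elements outside the genes are empty in Des-/- swim except for the Nkx2-5 peak about 20 kb upstream, the Gata6 panel leaves out peaks assigned to Gata6os, and the Hand2 panel shows peaks assigned to Hand2os1 or Hdnr.

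Nkx2-5, among the earliest homeodomain factors of the cardiac lineage, lies on chromosome 17 (26838664 to 26845009, minus strand). Its peaks numbered 7 at rest in Des+/+ and 2 in Des-/-, and 4 and 1 after swimming, and covered 6491, 4326, 2582 and 385 bp. None of its 5 regions had a peak in all lists. The 2 peaks of Des-/- basal were 2112 and 2214 bp long and 24 and 25 reads high, and lay over the promoter and the upstream element. The 4 Des+/+ basal peaks without a partner there were 15, 16, 26 and 16 reads high and at most 774 bp long.

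Around the outer Nkx2-5 start, from 1.2 kb before to 1.7 kb after it, the highest peak was 26 reads at rest in Des+/+ (input 1), 24 in Des-/- (input 6) and 16 in Des+/+ swim (input 4). Des-/- swim had no peak there. These heights were not all at one place. The start itself was covered only at rest, by a peak of 21 reads in Des+/+ and the 24-read peak in Des-/-. The 26-read peak lay upstream of the start and had no partner in the other basal list. The 16-read swim peak overlapped that upstream peak and did not reach the start. The upstream element, 4.2 to 6.4 kb before the start, was 26 and 25 reads high at rest in Des+/+ and Des-/-, and 24 in Des+/+ swim. It also had no peak in Des-/- swim. Without any peak, its height in Des-/- swim is known only to have missed the criteria of the peak caller, which kept heights from 15 reads. A peak from 19.6 to 20.3 kb upstream, over the noncoding genes Gm17382 and Gm20468, was 16 reads high in Des+/+ basal and 17 in both swim libraries, and was absent from Des-/- basal. It was the only Nkx2-5 peak of Des-/- swim. The 300-base RefSeq promoter window of Nkx2-5, at the inner start, overlapped no peak in any list.

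Gata6, a GATA factor of the heart and of smooth muscle, lies on chromosome 18 (11052064 to 11085635, plus strand). It had 4 and 2 peaks at rest in Des+/+ and Des-/-, and 3 in each swim library. Fewer peaks here did not mean less covered length: the 2 of Des-/- basal covered 7715 bp and the 4 of Des+/+ basal 7586 bp. The promoter region, from 2.8 kb before to 4.0 kb after the start, held the highest peaks: 40 reads in both basal libraries, and 32 and 25 after swimming in Des+/+ and Des-/-. In the swim lists part of this region was assigned to Gata6os, the divergent noncoding gene. A downstream element, 93.1 to 94.1 kb after the start, was 26 and 30 reads high at rest in Des+/+ and Des-/- and 22 in Des+/+ swim, with inputs of 1 or 2, and had no peak in Des-/- swim.

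Tbx5, the T-box activator whose mutation in people causes heart and limb defects, lies on chromosome 5 (119832668 to 119885219, plus strand). It had 2 peaks of 15 reads in Des+/+ basal, 1 of 18 reads in Des-/- basal and none in either swim library. All were annotated as promoter, 2.4 to 5.0 kb after the outermost start, and none exceeded the median height of its list.

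Tbx20, a T-box factor required in adult cardiomyocytes, lies on chromosome 9 (24718138 to 24774303, minus strand) and had 4 peaks in each basal library and 2 in each swim library. In the region from 0.9 kb before to 1.0 kb after its start the highest peak was 17 reads at rest in Des+/+ and 27 in Des-/-. After swimming it was 16 and 17, so Des-/- basal was the high library. Only in Des-/- basal did a peak run over the start itself. The ratio Des-/- over Des+/+ basal was 1.59 (exact 95% interval 0.835 to 3.11), which includes 1. An exon peak 23.5 to 24.1 kb into the gene was 24 reads high at rest in Des+/+ and 16 in Des-/-, and was absent from both swim lists.

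Tbx3, a T-box repressor known for its role in the conduction system, lies on chromosome 5 (119670669 to 119684724, plus strand). It had 2 and 3 peaks at rest in Des+/+ and Des-/-, and 1 and 3 after swimming. The peak at its start was 19, 22, 19 and 22 reads high in the same order and so differed by 3 reads over the 4 libraries. In Des+/+ swim and Des-/- swim this peak ended 86 and 83 bp before the start. The next region, 0.3 to 2.4 kb into the gene, was 19 reads high at rest in Des+/+, 23 in Des-/- and 19 in Des-/- swim, and had no peak in Des+/+ swim. Inputs at the start were 3, 3, 5 and 9 reads.

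Irx4, the Iroquois homeodomain factor of the ventricles, lies on chromosome 13 (73260479 to 73269608, plus strand). At rest it had 3 peaks in Des+/+ and 4 in Des-/-, and after swimming 3 in Des+/+ and none in Des-/-. The promoter printed above was covered at rest by a peak of 22 reads in Des+/+ and one of 15 in Des-/-, and by no peak in the swim lists. An element 10.3 to 11.6 kb after the start was 25 reads high at rest in Des+/+, 16 in Des-/- and 15 in Des+/+ swim. The Des+/+ swim peak met the Des-/- basal peak only at its edge. It covered 0 of 300 bases centred on the highest point of the Des+/+ basal peak, so that point had no peak in either swim list. The centred ratio of the element, Des-/- over Des+/+ basal, was 0.604 (exact 95% interval 0.302 to 1.18). Other Irx4 peaks, inside the gene, were 15 to 17 reads high and no more than 2 lists shared one.

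Hand2, which drives growth of the right ventricle in development, lies on chromosome 8 (57320983 to 57324633, plus strand) and was named by no peak in any list. Peaks over it were assigned instead to Hand2os1, the antisense noncoding gene that overlaps it, or to Hdnr downstream. Over the Hand2 gene and 5 kb either side there were 3 peaks in each basal library, and after swimming 2 in Des+/+ and 5 in Des-/-. They covered 6011, 6736, 4810 and 7084 bp, and the highest was 28, 26, 24 and 19 reads. Of the 300 bases of the promoter window printed above, peaks covered 300 at rest in Des+/+ and 106 in Des-/-, and 43 and 230 after swimming. In Des+/+ swim the start itself lay outside any peak. By covered length Hand2 was therefore not lowest in Des-/- swim, while by height it was.

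**Figure D3:**
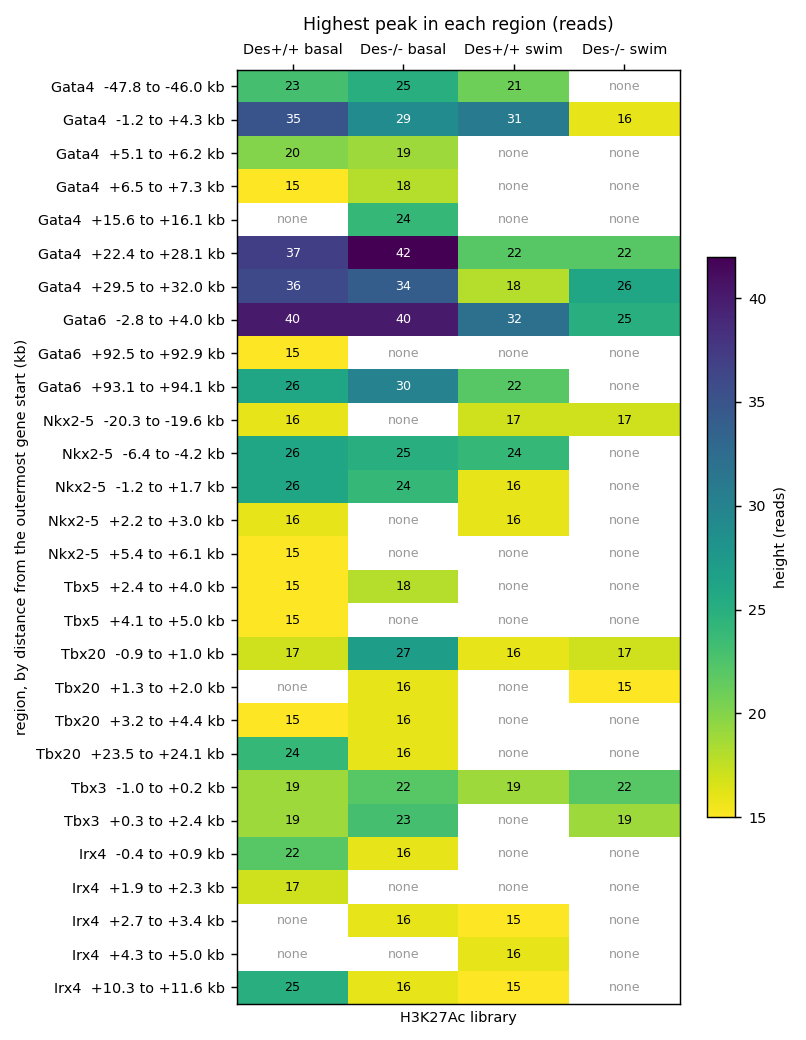
Rows are the 28 regions of the 7 genes, by distance from the outermost gene start (kb), and columns are the 4 libraries. Each cell gives the highest peak in reads, or none where the list has no peak. In 6 rows a height stands in every column, and in 5 rows in all columns but Des-/- swim.

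Over the 4 lists the member peaks formed 28 regions, and 6 (21.4%, 95% Wilson interval 10.2 to 39.5%) had a peak in every list. Over all genes 37.7% of 18277 regions did. Of the 16 member regions with a promoter peak 5 were in every list (31.2%, against 47.8% of all promoter regions), and of the 12 others 1 was (8.33%, against 18.1%). Member regions with a peak numbered 24 and 21 at rest in Des+/+ and Des-/-, and 15 and 9 after swimming. These were 85.7%, 75%, 53.6% and 32.1% of the 28, against 78.0%, 83.3%, 52.6% and 49.4% of all regions, whose share was also lower in both swim lists. In 6 regions both basal lists had a peak and neither swim list did (21.4%, against 13.2% of all regions). In 5, all lists but Des-/- swim had a peak (17.9%, against 8.63%): the Gata4, Gata6 and Nkx2-5 elements outside the genes, the Irx4 downstream element and the Nkx2-5 outer promoter. In 1, in Tbx3, all lists but Des+/+ swim had a peak (3.57%, against 6.40%). No interval was computed for the shares of single lists or of these patterns. The 28 regions also leave out the Hand2 locus, which had peaks in every list under other gene names. A chained region can join peaks that lie at different places. At the Nkx2-5 outer promoter the Des+/+ swim peak did not reach the start. At the Irx4 downstream element the Des+/+ swim peak covered 0 of the 300 bases on the highest point of the Des+/+ basal peak. The outer Nkx2-5 start and the highest point of the Des+/+ basal Irx4 peak were thus without a peak in both swim lists. The Des+/+ swim peak at Nkx2-5 did overlap the highest Des+/+ basal peak of that region, which lay upstream of the start.

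Between genotypes at rest, 8 of the 30 Des+/+ peaks had no overlapping peak in Des-/- (26.7%, 95% Wilson interval 14.2 to 44.4%), against 14.5% of all Des+/+ basal peaks. Nkx2-5 gave 4 of the 8, and all but 1 were 15 to 17 reads high. In the other direction 3 of the 27 Des-/- peaks had no partner (11.1%, 3.85 to 28.1%), against 19.7% of all. Both intervals include the value over all peaks. Above 20 reads, 1 of 14 Des+/+ peaks had no partner (2.10% of all such peaks) and 1 of 15 Des-/- peaks (3.85%). The limit of 20 reads, used below as well, is the lowest median height of any list.

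Between genotypes after swimming, 10 of the 22 Des+/+ peaks had no partner in Des-/- (45.5%, 26.9 to 65.3%), against 27% of all. Nkx2-5 and Irx4 gave 3 each, Gata4 2, and Gata6 and Tbx20 1 each. Above 20 reads, 4 of 9 member peaks had no partner, against 7.12% of all such peaks: 2 of Gata4 (28 and 21 reads), 1 of Gata6 (22 reads) and 1 of Nkx2-5 (24 reads). The 28-read Gata4 peak lay in the outer promoter block, which has another peak in Des-/- swim. The others without a partner lay more than 3 kb from an annotated start. The 9 peaks were 21 to 32 reads high, while the 7.12% takes in every peak above 20 reads at any position. No interval and no background matched for height or position was computed. At 20 reads or less, 6 of 13 had none, against 45.9% of all. Of the 15 Des-/- swim peaks 3 had no partner in Des+/+ swim (20.0%, 7.05 to 45.2%), against 22.2% of all, and all 4 above 20 reads had one, while 7.26% of all such peaks had none.

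With swimming in Des+/+ mice, 12 of the 30 basal peaks had no partner (40.0%, 24.6 to 57.7%), against 39.0% of all, and 2 of the 22 swim peaks had none (9.09%, 2.53 to 27.8%), against 8.39%. In Des-/- mice 15 of the 27 basal peaks had no partner in swim (55.6%, 37.3 to 72.4%), against 44.8% of all, and 1 of the 15 swim peaks had none (6.67%, 1.19 to 29.8%), against 6.28%. In Des-/- these 15 were 5 of Gata4, 4 of Irx4, 2 each of Nkx2-5 and Tbx20, and 1 each of Gata6 and Tbx5. The swimming shares were thus near the background of their lists. Above 20 reads, 2 of 14 Des+/+ basal peaks had no partner in Des+/+ swim (16.4% of all such peaks) and 5 of 15 Des-/- basal peaks none in Des-/- swim (22.2%). Every swim peak above 20 reads had a partner in the basal list of its genotype, 9 of 9 in Des+/+ and 4 of 4 in Des-/-. Each list enters 2 of these 4 comparisons, so they are not independent.

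**Figure D4:**
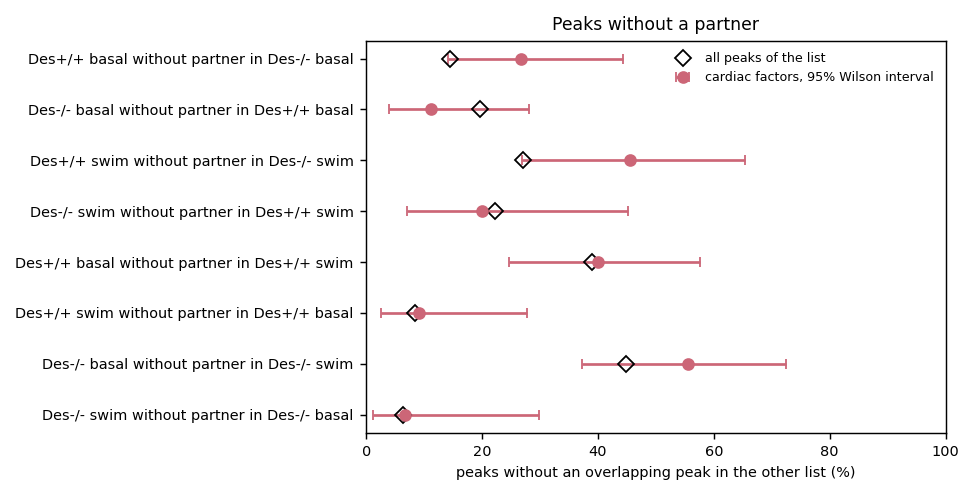
Circles give the percent of cardiac factor peaks without an overlapping peak in the other list, with 95% Wilson intervals, and diamonds the same over all peaks. The widest gap is for Des+/+ swim against Des-/- swim, 45.5% against 27%, and the interval there starts at 26.9% and so includes 27%.

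Heights were compared in regions with a peak in both lists, as the log2 ratio of the highest heights minus the median over all shared regions. That median was 0.08 for Des-/- over Des+/+ basal, 0.15 for Des-/- over Des+/+ swim, -0.43 for swim over basal in Des+/+ and -0.40 in Des-/-. The centred median of the member regions was 0.04 over 19 regions, -0.15 over 10, 0.25 over 15 and 0.02 over 9. None of these medians was as large as a 1.5-fold difference.

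A centred difference of 1.5-fold or more was met by 2 member regions for Des-/- below Des+/+ basal, against 3.11% of 12247 regions: the Irx4 downstream element and the Tbx20 exon peak (0.63-fold). For Des-/- below Des+/+ swim there was a single one, against 4.02% of all. It was the inner part of the Gata4 outer promoter block, which did not reach the start. No member region was 1.5-fold higher in Des-/- basal (2.92% of all) or in Des-/- swim (3.55%) than in Des+/+. None was 1.5-fold higher or lower with swimming in Des+/+ (5.27% and 3.86% of all) or in Des-/- (4.32% and 3.03%). The exact interval of the Gata4 ratio excluded 1, and those of the Irx4 and Tbx20 regions did not. That Gata4 ratio was the lowest of all member ratios, and its interval makes no allowance for the number of regions looked at. It covers counting error only, with 1 library per group, and is not a test.

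**Figure D5:**
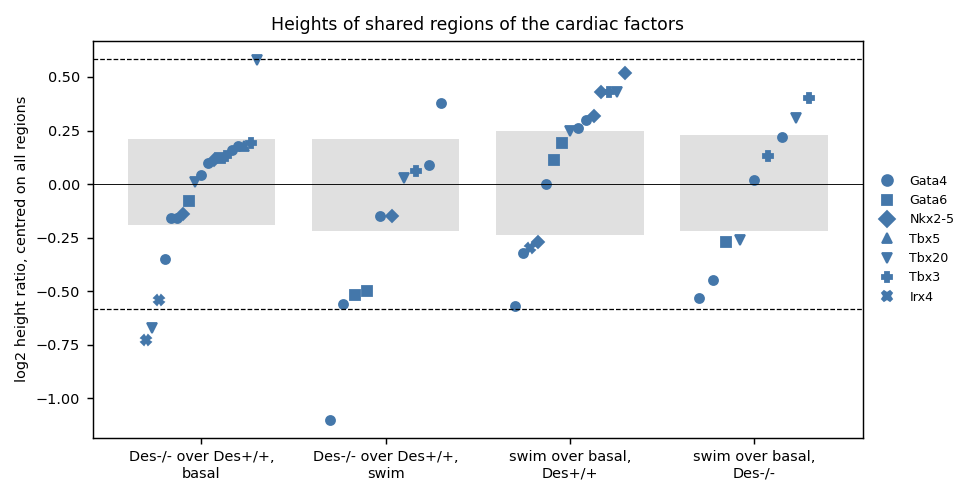
Each symbol is a region shared by 2 libraries, by its log2 height ratio centred on all shared regions (vertical axis). Grey boxes run from the lower to the upper quartile of all shared regions and dashed lines mark 1.5-fold. Only 3 symbols lie below the lower line, from Irx4 and Tbx20 at rest and from Gata4 after swimming (-1.10). None lies above the upper line, which Tbx20 at rest nearly reaches (0.58).

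The labelled cell type was checked against markers. All 7 cardiomyocyte marker genes had a peak in both basal lists and in Des+/+ swim, and 5 of 7 in Des-/- swim, where Actc1 and Myl2 had none. The sum of their highest heights was 234 and 232 reads at rest and 196 and 109 after swimming. Endothelial markers also had peaks, 6 of 6 genes in the basal lists and 5 of 6 in the swim lists, where Cdh5 had none, with sums of 259, 229, 130 and 158 reads. Fibroblast markers had peaks at 1, 3, 0 and 0 of 6 genes, with sums of 16, 53, 0 and 0 reads. The 4 mural, 4 leukocyte and 4 conduction markers had none. Of the 4 atrial markers only Myl4 had peaks, with 55, 65, 0 and 41 reads. Cardiomyocyte markers were thus low in the same library as the Gata4, Nkx2-5 and Irx4 peaks, and the part of this in those results was not tested.

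Another 24 genes of cardiac transcription factors and their cofactors were counted in the same way. Of these 12 had a peak in some list, 6 had one in every list and 12 had none. Their peaks numbered 27 and 22 at rest in Des+/+ and Des-/-, and 16 and 10 after swimming. Most peaks belonged to Meis1, a homeodomain cofactor (5, 5, 5 and 2), Tead1, the DNA-binding partner of YAP (2, 2, 3 and 3), Irx3 (3, 2, 1 and 2) and Meis2 (2, 3, 2 and 0). Foxc2, Gata5, Hand1, Irx1, Irx2, Irx5, Irx6, Isl1, Nkx2-6, Shox2, Tbx1 and Tbx18 had no peak. In Des-/- swim against Des-/- basal, 7 of these genes had fewer peaks, 1 had more and 3 had as many, and of the members 5 had fewer, 1 more and 1 as many. Over all genes with a peak in either list 49.7% had fewer and 8.48% more. In Des-/- swim against Des+/+ swim, 3 of the other factors had fewer peaks, 1 had more and 4 had as many. Of the members 3 had fewer, 1 more and 2 as many, and over all genes 27.4% had fewer and 22.7% more. These shares make no allowance for the number of peaks per gene. Smarcd3, a subunit of the cardiac chromatin remodelling complex, was picked out after its values were seen. It reached 33 and 35 reads at rest and 19 in Des+/+ swim, and had no peak in Des-/- swim.

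Among 5744 genes with a peak in all lists, the 2 whose covered length over the lists was most like that of each member were found by Euclidean distance on the log2 scale over the 4 libraries. For Gata4 they were Atp2a2, the calcium pump of the sarcoplasmic reticulum (distance 0.320), and Cuedc1 (0.502). For Gata6 they were Jmjd1c (0.115) and Swap70 (0.238), and for Tbx20 Vps18 (0.194) and Cdc42 (0.306). For Tbx3 they were Mrpl58 (0.331) and Ushbp1 (0.356). Nkx2-5 had the most distant ones, Pcgf5 (0.583) and Sh3bp5 (0.615), which covered 558 and 412 bp in Des-/- swim against 385 bp for Nkx2-5.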

How the data were processed

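Members, gene lists and tests were chosen with earlier results of these data known. Per the labels and the methods, the authors aligned single-end reads to GRCm38 (mm10) with Bowtie2 2.4.4 and SAMtools 1.13, called peaks library by library against the matched input with their own scripts, and annotated them with ChIPseeker 1.36.0. Duplicate handling, read extension and input scaling are not given in the sources used here. The deposited height and input height are a coverage signal in reads. The deposited fold change is the ratio of height plus 1 to input height plus 1. The deposited distance to the nearest start is a score in bp. Library totals are not in the lists, so depth was seen only through heights. Lamin A/C lists were not used. An item of the list of other factors is not reported here. The lists also hold p-values and false discovery rates of the peak calling, which were not used.

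Peaks of 2 lists were partners when they overlapped by at least 1 bp, and overlapping peaks were chained into regions. Outermost starts, gene spans and coding bases are from GENCODE M21 (GRCm38), which placed 20 of 20 member transcripts as the lists do. Shares have 95% Wilson intervals, heights exact Poisson intervals and ratios exact conditional binomial intervals. The names in the text are the 8 members, the 4 other factors with most peaks and those with none, and for each member with a peak in all lists the 2 genes nearest in covered length. Smarcd3 and genes named by position or as markers without a peak were chosen after their values were seen. Heights have 1 library per group, so no p-value was computed. Alternatives were a minimum height of 30, equal numbers of the highest peaks, peaks by gene body and 5 kb either side, 50% overlap, a promoter limit of 1 kb, and other scalings of height. Interval functions were tested on simulated lists. Python 3.11.15, pandas 2.3.3, SciPy 1.17.1, statsmodels 0.14.6 and matplotlib 3.10.9 were used.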

Additional observations from a re-analysis of the deposited data

Results flagged for a closer look

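In some members a contrast had opposite signs in the 2 genotypes or the 2 conditions, with 1 library in each group, and the difference between the contrasts was not tested. The number of Gata4 peaks was higher by 1 in swim than in basal in Des+/+ and differed by -5 in Des-/-, and Des-/- minus Des+/+ was 3 at rest and -3 after swimming. For Gata6 peaks, swim minus basal was -1 in Des+/+ and 1 in Des-/-. Covered length of Gata6, Des-/- minus Des+/+, was 129 bp at rest and -882 bp after swimming, and that of Tbx3 was -149 bp and 1521 bp. The number of Irx4 peaks, Des-/- minus Des+/+, was 1 at rest and -3 after swimming. The opposite signs of Gata6 were lost when its peaks were counted over the gene body and 5 kb either side, whatever gene they were assigned to. By that count, which takes in Gata6os peaks and leaves out the downstream element, swim minus basal was 0 peaks in Des+/+ and 3 in Des-/-, and Des-/- minus Des+/+ was 31 bp at rest and 194 bp after swimming. The opposite signs in peak number of Gata4 and Irx4, and in covered length of Tbx3, were still seen by that count. Covered length by the gene named had no opposite signs for Gata4 (16243, 15443, 11533 and 7415 bp) or Irx4 (2925, 2137, 2038 and 0 bp). By gene body and 5 kb either side, Gata4 covered 14563, 14821, 10700 and 7415 bp, so its genotype difference in length did change sign there. Numbers of peaks also depend on whether the caller split a block into several peaks.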

How the results depend on the processing

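No paired analysis was possible because each group had 1 library and no test was made, and for the same reason no library could be left out. Depth limits most of these values, since member heights lay near the lowest height kept and library totals are not known. With a minimum height of 30 reads, member peaks numbered 4 and 5 at rest in Des+/+ and Des-/-, and 2 and 0 after swimming, covering 13895, 14051, 5552 and 0 bp, and 0 regions had a peak in all lists. The promoter share of Des+/+ swim was then 100%. Peaks without a partner were 40% of Des-/- basal against Des+/+ basal, 100% of Des+/+ swim against Des-/- swim, 0% of Des+/+ swim against Des+/+ basal and 100% of Des-/- basal against Des-/- swim. These shares rest on 5 or fewer member peaks, with both lists cut at 30 reads, which left no member peak in Des-/- swim. Shares over all peaks were not computed at that height. Values that need a member peak in Des-/- swim could not be had. With equal numbers of the highest peaks, member peaks numbered 16 at rest in Des+/+ and 15 in Des-/-, and the shares without a partner were 28.6% of Des+/+ swim against Des+/+ basal and 33.3% of Des-/- basal against Des-/- swim. By gene body and 5 kb either side, the promoter share of Des+/+ basal was 78.6%, the covered length in Des-/- swim 24297 bp and the median centred log2 ratio between genotypes after swimming -0.48. Adding the peaks of Hand2os1, Hdnr and Gata6os, an alternative chosen after seeing the data, gave 25132 bp in Des-/- swim and 8 regions with a peak in every list. The share of Des+/+ swim peaks without a partner in Des-/- swim was 38.5% with those peaks added and 36.4% by gene body and 5 kb either side. Without centring, the median log2 ratio of swim over basal was -0.18 in Des+/+ and -0.39 in Des-/-. The cause of these differences was not tested. Overlap of 50%, input-subtracted heights, centring on promoter regions and a promoter limit of 1 kb moved none of the 13, 4, 4 and 4 values computed under them beyond counting error or 1.5 times.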
